A study of Sus scrofa with 12 samples.

Results

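Vitrification II was compared with vitrification I, 2 vitrified groups of pig (Sus scrofa) blastocysts, across all genes of the deposited expression table. The comparison took the columns of the table that carry the library names of these groups, 3 libraries each, so 6 of the 11 libraries with a column. The blastocysts came from parthenogenetic activation, in which an egg is made to develop without sperm, so every group carries maternal chromosomes only. The other groups were a fresh control of 3 libraries, which was not vitrified, and a group labelled only vitrification, of whose 3 samples 2 had a column. They entered the estimate of the spread between libraries and serve below as reference levels. A fresh control level given as a single value is the mean of its 3 libraries, which can hide a wide spread. No label gives a breed, an age of the embryos, or the way in which the vitrification procedures differed, and the liquid helium named in the series title is not tied to a group. The source is labelled as blastocyst, while the protocol was written for sorted single cells. Should a library hold 1 cell, the p-values below measure how cells differ. Nothing in the labels says that libraries of a group came from separate embryos or cultures, so that spread may be technical. Where a library holds many cells, fewer cells of a type and less RNA per cell cannot be told apart.

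Vitrification cools cells so fast, and in the presence of so much cryoprotectant, that water turns to a glass without forming crystals. A blastocyst is a hollow ball whose outer epithelium, the trophectoderm, is held together by junctions and keratin filaments and pumps fluid into the cavity, while the inner cell mass lies inside. Secreted and membrane proteins of these cells enter the endoplasmic reticulum (ER), where chaperones fold them and sugar chains are added before coated vesicles carry them to the Golgi. When unfolded proteins build up in the ER, the unfolded protein response raises the chaperones and the degradation machinery of that compartment.

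Levels are given as scaled FPKM. FPKM counts sequenced fragments relative to the length of the gene and to all mapped fragments of the library, and scaled FPKM divides it by a factor for each library that brings the typical gene to the same level. Changes are differences in mean log2(scaled FPKM + 1), vitrification II minus vitrification I, ± SE, so a change of 2 is about 4-fold for a well expressed gene and understates the fold of a low one. A gene rose or fell where the two-sided moderated test of limma gave a Benjamini-Hochberg adjusted p under 0.05 over all 9411 genes tested. Every adjusted p below comes from that test unless another is named. Libraries carry the names of their columns, C1 to C3 for vitrification I, H1 to H3 for vitrification II, A1 to A3 for fresh control and B1 and B2 for the vitrification group. Values for 3 libraries are in the order of these numbers. No label says whether the numbers pair libraries across groups, and they were not used as pairs.

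The libraries of the groups differed as wholes. The mitochondrial genome supplied 58.9%, 43.8% and 64.3% of the deposited FPKM in vitrification I and 19.7%, 22.1% and 16.9% in vitrification II, against 39.9% ± 3.44 (SD, n = 3) in fresh control. Genes above 0 numbered 12340, 14039 and 11550 in vitrification I and 16204, 15415 and 15863 in vitrification II. The 50 most abundant genes held 65.1% ± 9.19 and 37.8% ± 2.50 of the FPKM, and ribosomal protein genes 2.76% ± 0.910 and 7.03% ± 0.529. Both totals include the mitochondrial genome, so these shares are not independent of the mitochondrial share. Of the FPKM outside the mitochondrial genome, ribosomal protein genes held 6.14% ± 0.588 in vitrification I and 8.74% ± 0.471 in vitrification II. The groups did not overlap in any of the 7 measures compared, and each gave an exact permutation p = 0.1, the smallest that 3 against 3 libraries allow (adjusted p = 0.1 over 7 measures). Sequencing depth is unknown, since the table holds no counts, and the part that depth or the mitochondrial share had in the gene results was not tested. Over the genes tested, libraries of vitrification I correlated with each other at a Pearson r of 0.906 to 0.932 and those of vitrification II at 0.937 to 0.946, while pairs across the groups lay at 0.792 to 0.873. These r are across genes, which are not independent replicates.

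**Figure D1:**
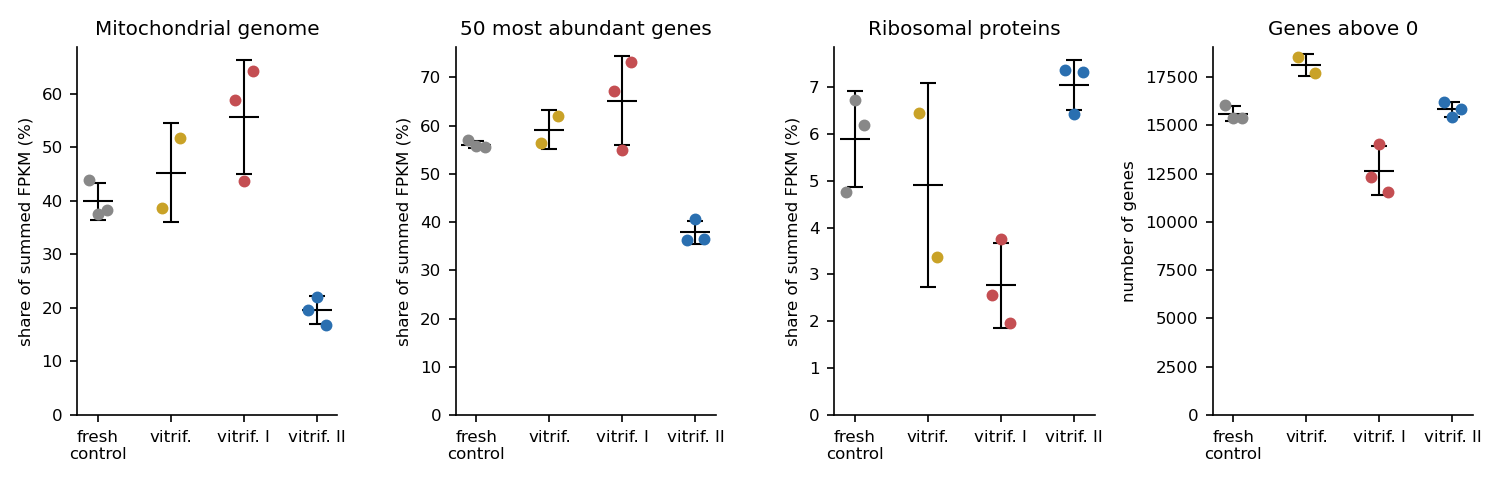
Measures of each library by group: the share of summed FPKM from the mitochondrial genome, from the 50 most abundant genes and from ribosomal protein genes (percent, deposited FPKM), and the number of genes above 0. Points are libraries, and the bar with whiskers is the mean ± SD. Vitrification I lies at 43.8% to 64.3% mitochondrial FPKM and vitrification II at 16.9% to 22.1%, and the groups do not overlap in any of the panels shown.

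Of the 9411 genes tested, 2577 (27.4%) passed between the 2 procedures. In vitrification II 1629 genes were higher (17.3% of those tested) and 948 were lower (10.1%), so 63.2% of the calls were higher. The change was at least 4-fold in 418 of the higher and 158 of the lower calls. The median change of all genes tested was 0.17. This balance rests on the scaling. With the FPKM as deposited, whose total includes the mitochondrial genome, the median of all genes moved to 0.68, 3614 genes (38.4%) passed, and 3261 were higher and 353 lower (34.7% and 3.75% of those tested, 90.2% of calls higher). With libraries scaled to their total outside the mitochondrial genome there were 1554 higher and 702 lower calls (68.9% higher), and after quantile normalization, where 28.1% of genes passed, 1276 higher and 1373 lower (13.6% and 14.6% of those tested, 48.2% of calls higher). None of these settings, nor any other tried, turned the direction of a gene called in both. With vitrification I represented by C2 alone, the library of its group with the lowest mitochondrial share, 334 genes passed (3.64% of 9172 tested, with 236 higher, or 2.57%, and 98 lower, or 1.07%), and 316 of these had passed in the same direction with all 3. Without H1 or H2 the count was 1705 or 1690.

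**Figure D2:**
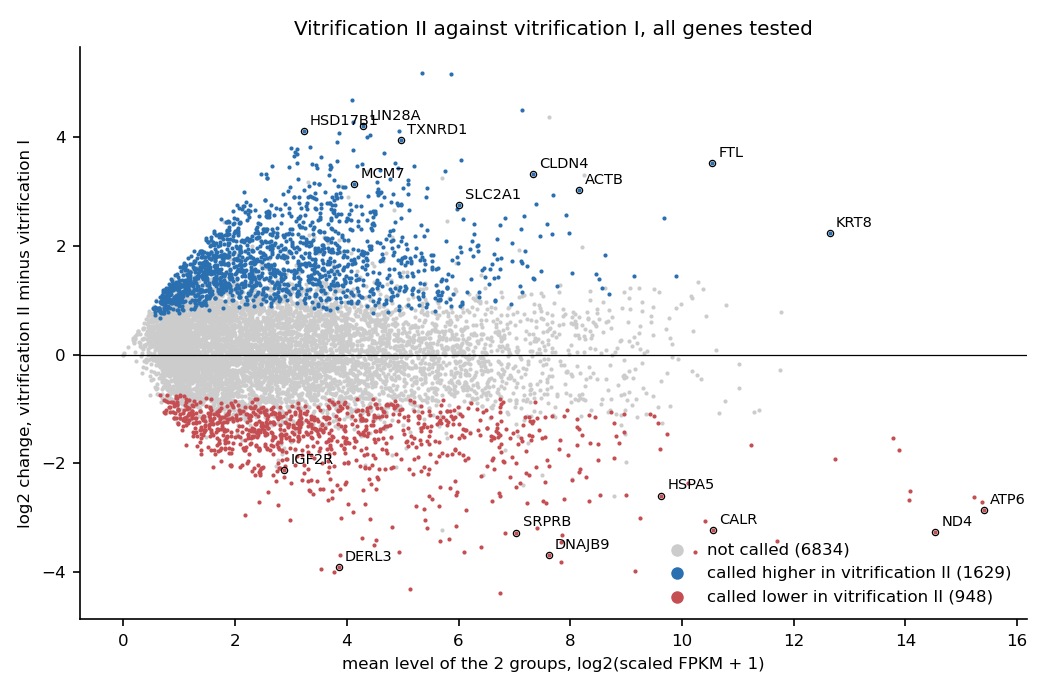
Change of every gene tested (vertical axis, log2, vitrification II minus vitrification I) against its mean level in the 2 groups (horizontal axis, log2(scaled FPKM + 1)). Each point is a gene, blue where it was called higher in vitrification II (1629), red where it was called lower (948) and grey where it did not pass. Genes of the secretory pathway and of the mitochondrial genome stand among the abundant genes that were lower, and KRT8 and FTL among the abundant genes that were higher.

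Genes of 41 pathways and functions were followed as lists. The members of a list that passed are counted below against the shares of all genes, 17.3% higher and 10.1% lower, and its median against 0.17. No test was made of a list as a whole. Of all genes tested, 26.2% had every library of vitrification II above vitrification I, and 17.1% the reverse. Most genes named were picked among those called, and those taken for their size of change had to be free of overlap. A lack of overlap noted below is therefore a description only. In all, 143 of the genes named below or plotted passed. Of these, 55 passed in each of 21 alternative analyses and a further 49 lost their call only when C2 stood alone for its group (adjusted p = 0.0526 to 0.297). Without a filter on low values, which raised the number of genes adjusted over, 32 of the calls ended (adjusted p = 0.0538 to 0.226), and with the FPKM as deposited 12 ended, ATP5PF, LDHB, EPCAM, TFAP2A, SRSF11, PABPC1, HSPD1, SQLE, ETFA, GRB10, ITGAV and TOMM22 (adjusted p = 0.0724 to 0.337). Calls that ended when a single library was left out are given beside the gene, apart from SSR3, a subunit of the translocation complex that is only plotted, which lost its call without C3 or H2.

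**Figure D3:**
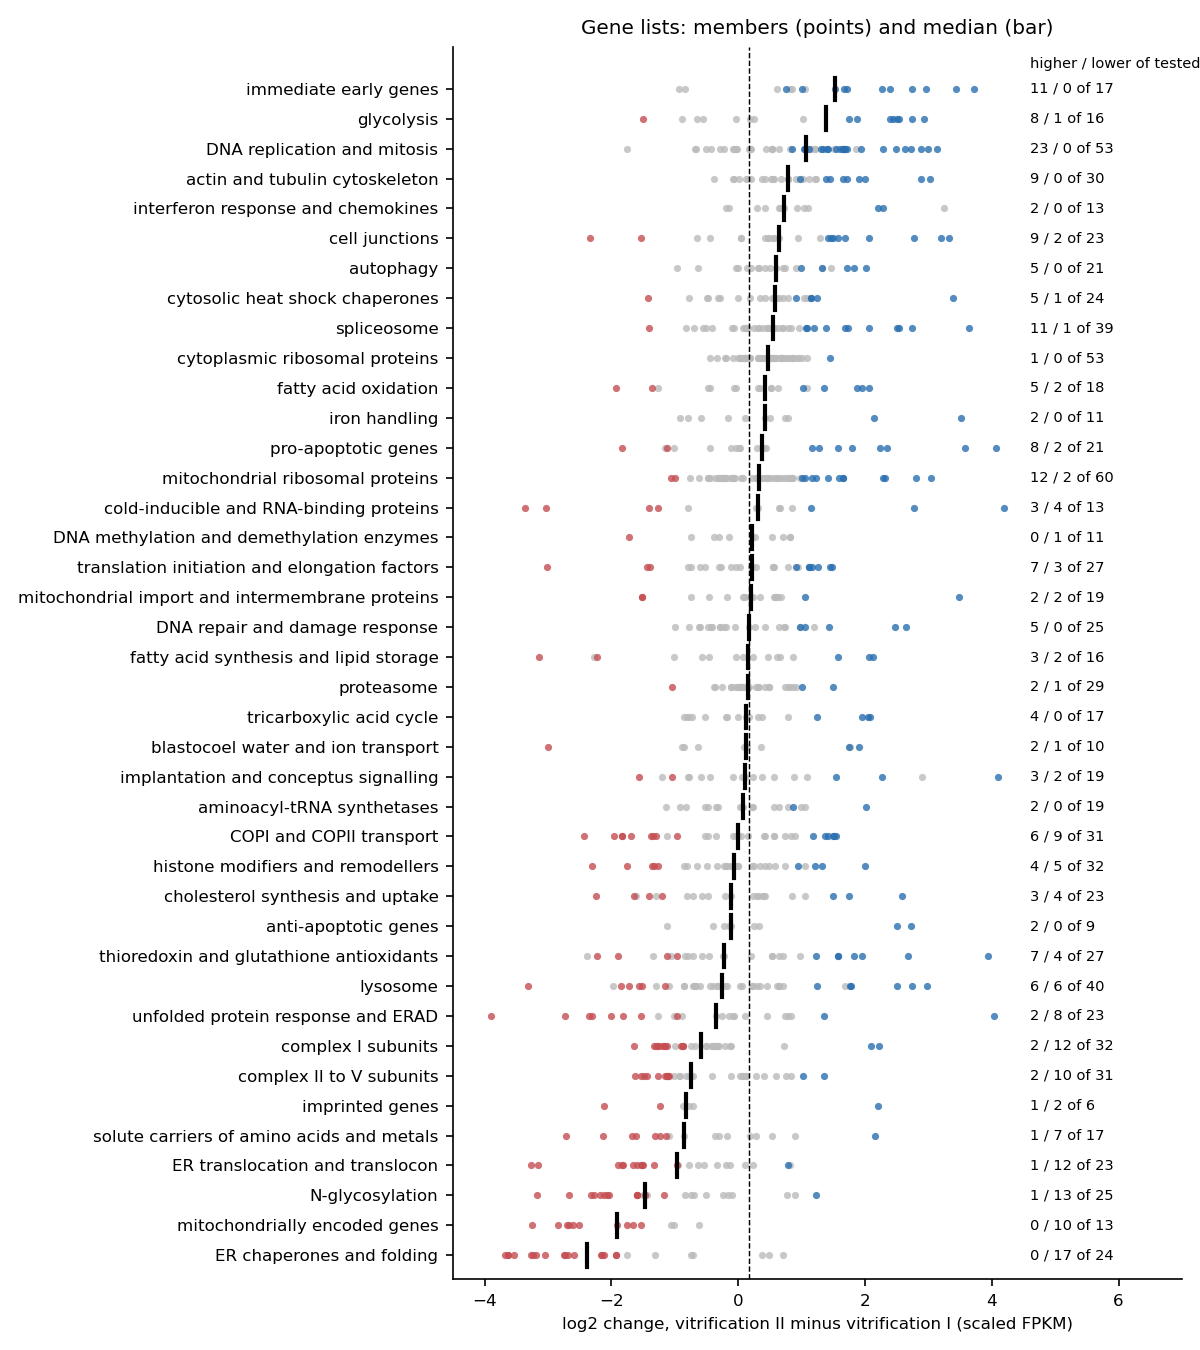
Change of each member of the gene lists with at least 5 members tested (points, horizontal axis, log2, vitrification II minus vitrification I) with the list's median (black bar), ordered by that median. Blue members were called higher, red members lower and grey members did not pass, and the dashed line is the median of all genes tested, 0.17. ER chaperones (0 higher and 17 lower of 24) and mitochondrially encoded genes (0 and 10 of 13) lie lowest, and immediate early genes (11 and 0 of 17) and glycolysis (8 and 1 of 16) lie highest.

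Most ER chaperones were lower in vitrification II. Of 24 chaperones and folding enzymes of the ER tested, 17 fell and 0 rose, with a median change of -2.38. CALR (calreticulin), which binds newly made glycoproteins and stores calcium, read 3280, 1067 and 3882 in vitrification I and 228, 344 and 207 in vitrification II, and fell by 3.23 ± 0.57 (adjusted p = 0.00198). HSPA5 (BiP), the main HSP70 chaperone of the ER, read 1097, 1277 and 1689 against 180, 275 and 218 and fell by 2.59 ± 0.63 (adjusted p = 0.0101). In both genes the lowest library of vitrification I lay above the highest of vitrification II, and in CALR library C2 lay well below the other two. The fresh control mean was 262 for CALR, near vitrification II, and 627 for HSPA5, between the groups. The control libraries were uneven in this list. Its summed level ran from 1479 to 9808 in fresh control, 8336 to 17536 in vitrification I and 1406 to 1916 in vitrification II.

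The partners of BiP moved with it. DNAJB9 read 201, 218 and 681 in vitrification I and 23.8, 19.1 and 27.9 in vitrification II, and fell by 3.68 ± 0.55 (adjusted p = 0.000877). DNAJC3, which also restrains the kinase that halts translation under ER stress, read 73.9, 49.8 and 259 against 7.13, 6.80 and 7.17 and fell by 3.63 ± 0.62 (adjusted p = 0.00171). Both belong to the DNAJ family, which hands unfolded chains to HSP70 proteins, and in both the highest library was C3. HSP90B1, the HSP90 of the ER, and PDIA3, a disulfide isomerase that works with calreticulin, were singled out after their values were seen because they were among the 12 most abundant genes outside the mitochondrial genome in vitrification I. They fell by 3.63 ± 0.70 and 3.05 ± 0.59 (adjusted p = 0.00305 and 0.00299). Among the enzymes of disulfide bonds, TXNDC5 fell by 2.12 ± 0.35 (adjusted p = 0.00140). ERO1B, an oxidase that recharges those enzymes, read 22.3, 11.6 and 28.7 in vitrification I and 0.307, 0.368 and 0.380 in vitrification II, and fell by 3.93 ± 0.36 (adjusted p = 8.93e-05). ERO1B was among the largest falls, which were chosen for no overlap of the groups. Its fresh control mean of 1.55 lay near vitrification II. Leaving out any single library left 15 to 18 of the chaperones lower, the FPKM as deposited left 15, and C2 alone left 2. HSPA5 lost its call without a filter on low values (adjusted p = 0.0744).

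Genes for entry into the ER were lower in many cases as well. Of 23 genes of the signal recognition particle, its receptor, the translocation channel and the signal peptidase, 12 fell and 1 rose (median -0.97). SRPRB, the membrane anchor of the receptor for the signal recognition particle, read 309, 82.9 and 328 in vitrification I and 20.7, 22.1 and 18.1 in vitrification II, and fell by 3.27 ± 0.44 (adjusted p = 0.000502). SEC63, which couples the channel to BiP, read 47.5, 23.9 and 77.9 against 6.46, 3.62 and 2.90 and fell by 3.16 ± 0.43 (adjusted p = 0.000508). Both genes were among the largest falls, which were chosen for no overlap of the groups. The fresh control means, 10.0 for SRPRB and 8.20 for SEC63, lay on the side of vitrification II. The 1 member that rose was SRP72, a protein of the signal recognition particle, by 0.79 ± 0.26 (adjusted p = 0.0401). Its call held in 8 of the 21 alternatives, and leaving out A2 or A3, C1 or C3, or any library of vitrification II ended it (adjusted p = 0.0598 to 0.141). Without C3, or without H2, 7 members were lower, and with the FPKM as deposited 7.

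The enzymes that build and trim N-linked sugar chains were lower in 13 of 25 genes tested and higher in 1 (median -1.47). MAGT1, a subunit of the complex that transfers the sugar chain, read 223, 210 and 479 in vitrification I and 20.6, 28.1 and 47.2 in vitrification II, and fell by 3.18 ± 0.56 (adjusted p = 0.00198). MGAT1, which starts the complex chains in the Golgi, read 107, 48.1 and 153 against 15.5, 19.2 and 18.3 and fell by 2.33 ± 0.38 (adjusted p = 0.00139). MAN2A1, the Golgi mannosidase that acts after it, fell by 2.67 ± 0.40 (adjusted p = 0.000798). In MAGT1 fresh control lay between the groups at 137, while in MGAT1 and MAN2A1 it lay below both, at 4.89 and 1.42. B4GALT1, a galactosyltransferase that acts later on the same chains, rose by 1.23 ± 0.34 (adjusted p = 0.0171), and lost its call without C1, H1 or H3 (adjusted p = 0.0543, 0.0574 and 0.0631). Outside the list, ST6GALNAC1, a sialyltransferase of O-linked chains, fell by 3.62 ± 0.46 and PIGP, a subunit of the enzyme that starts the glycosylphosphatidylinositol anchor, by 3.39 ± 0.33 (adjusted p = 0.000368 and 0.000127).

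Genes of the unfolded protein response and of ER-associated degradation divided. Of 23 tested, 8 fell and 2 rose (median -0.35). DERL3, a membrane protein through which misfolded chains leave the ER, read 30.1, 14.4 and 33.8 in vitrification I and 0.223, 0.955 and 1.09 in vitrification II, and fell by 3.90 ± 0.55 (adjusted p = 0.000623). HERPUD1, which assembles the degradation complex, read 225, 190 and 366 against 40.0, 36.2 and 34.4 and fell by 2.73 ± 0.53 (adjusted p = 0.00312). PPP1R15A (GADD34), the phosphatase subunit that lets translation resume after stress, went the other way, with 0.375, 2.21 and 1.44 in vitrification I and 17.5, 44.7 and 55.0 in vitrification II, and rose by 4.03 ± 0.51 (adjusted p = 0.000368). HERPUD1 separated the groups fully, while DERL3 and PPP1R15A were among the largest changes, which were chosen for no overlap. Fresh control means lay between the groups, at 7.74 for DERL3, 159 for HERPUD1 and 11 for PPP1R15A. The control libraries were uneven here too. The summed level of the whole list ran from 366 to 1362 in fresh control, 763 to 1210 in vitrification I and 436 to 562 in vitrification II. The other member that rose was OS9, a lectin of the degradation complex, by 1.35 ± 0.43 (adjusted p = 0.0348). Its call ended without C1 or C2 and without any single library of vitrification II (adjusted p = 0.0659 to 0.117). Without C1, 5 members were lower.

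**Figure D4:**
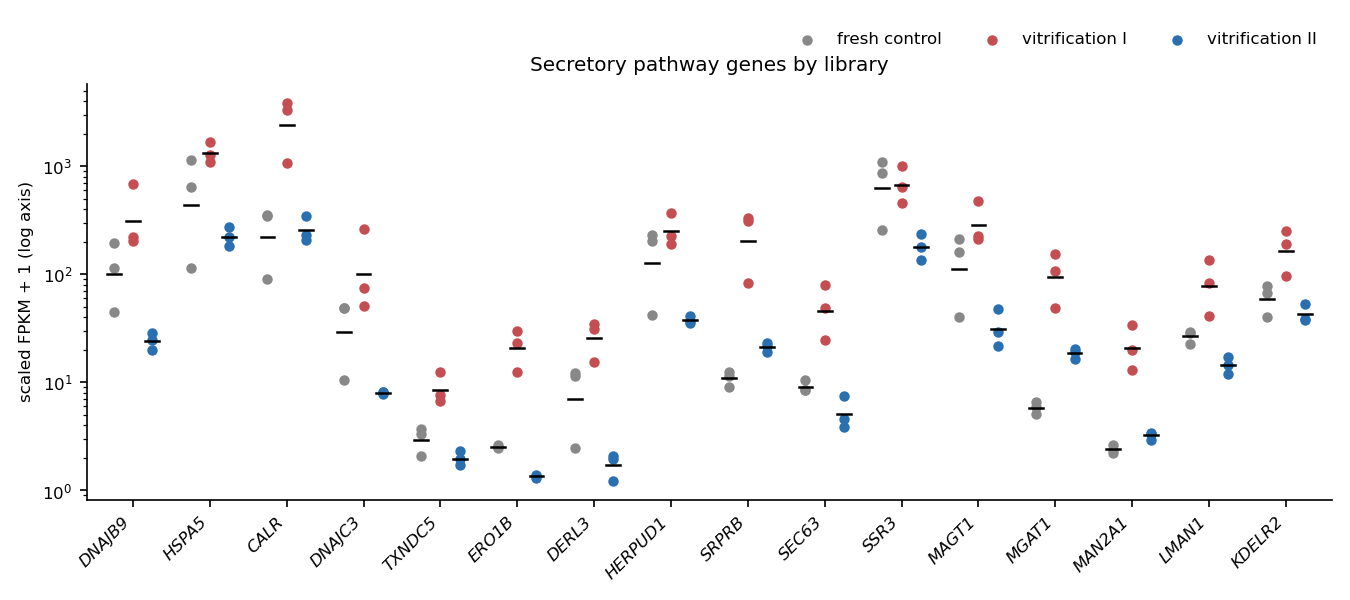
Scaled FPKM + 1 (vertical log axis) of 16 genes of the secretory pathway in each library of fresh control, vitrification I and vitrification II. Points are libraries and the black line is the mean on the log scale. The genes were picked among those called lower, so that the libraries of vitrification I lie above those of vitrification II in each of the 16 follows from the choice (17.1% of all genes tested separate this way).

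Coated vesicle transport between the ER and the Golgi showed no common direction, with 6 of 31 genes higher and 9 lower (median 0.00). LMAN1, a cargo receptor that carries glycoproteins out of the ER, read 82.5, 40.3 and 136 in vitrification I and 16.2, 13.5 and 11 in vitrification II, and fell by 2.43 ± 0.41 (adjusted p = 0.00159). KDELR2, which returns escaped chaperones to the ER, fell by 1.96 ± 0.38 (adjusted p = 0.00323), with 188, 94.5 and 250 against 51.6, 37.7 and 36.9. No library of one group reached into the other in these 2 genes. The split depends on the scaling, being 12 higher and 3 lower with the FPKM as deposited. Without C1 or H2 it was 3 higher and 5 lower.

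The genes encoded in the mitochondrion itself were lower in vitrification II on this scale. Of the 13 protein genes of the mitochondrial genome, 10 fell and 0 rose (median -1.92). ND4, a subunit of complex I, read 44697, 21179 and 63646 in vitrification I and 4303, 4501 and 3556 in vitrification II, and fell by 3.26 ± 0.48 (adjusted p = 0.000824). ATP6, of the ATP synthase, read 75529, 38171 and 117426 against 8851, 12028 and 8474 and fell by 2.85 ± 0.53 (adjusted p = 0.00265). C3 was the highest library and the groups did not overlap, with fresh control means between them at 16164 for ND4 and 47427 for ATP6. ND4L fell by 2.70 ± 0.51 (adjusted p = 0.00279). ND4L overlaps ND4 and ATP6 overlaps ATP8 on the mitochondrial genome, so reads of these pairs may be shared between their values. The FPKM as deposited left 10 of the 13 lower, quantile normalization 5, no filter on low values 4, and C2 alone 0. After quantile normalization the change was -0.29 in ATP6 and -0.08 in ND4L (adjusted p = 0.332 and 0.806), and both also lost their call without a filter (adjusted p = 0.0678).

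Nuclear genes of the same respiratory complexes were lower on this scale, but their direction rests on it. Of 32 nuclear subunits of complex I, 12 fell and 2 rose (median -0.59), and of 31 subunits of complexes II to V, 10 fell and 2 rose (median -0.75; 1 rose without any single library other than A1 or C2). With the FPKM as deposited these counts became 1 lower and 3 higher, and 0 lower and 6 higher. NDUFA1, of complex I, read 685, 335 and 631 in vitrification I and 131, 163 and 218 in vitrification II, and fell by 1.65 ± 0.36 (adjusted p = 0.00628). NDUFA10, of the same complex, read 22.8, 31.7 and 25.6 against 134, 140 and 108 and rose by 2.22 ± 0.37 (adjusted p = 0.00156). So subunits of one complex separated the groups in opposite directions, with fresh control at 453 for NDUFA1 and 215 for NDUFA10. In the ATP synthase, ATP5PF fell by 1.49 ± 0.35 and ATP5F1D rose by 1.35 ± 0.34 (adjusted p = 0.00834 and 0.0107), and the call of ATP5PF ended with the FPKM as deposited (adjusted p = 0.108). The 12 lower subunits of complex I became 7 and 6 without H1 or H3. The 10 lower ones of complexes II to V became 4 without C1, and 3, 5 and 4 without H1, H2 and H3.

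Proteins of the mitochondrial ribosome, made in the cytosol and imported, were higher in 12 of 60 genes and lower in 2 (median 0.32). MRPL57 read 3.08, 3.35 and 6.28 in vitrification I and 47.4, 35.0 and 40.4 in vitrification II, and rose by 3.04 ± 0.34 (adjusted p = 0.000243). MRPL28 rose by 2.81 ± 0.36 (adjusted p = 0.000394), from 4.98, 7.04 and 5.44 to 55.4, 53.5 and 33.4. Fresh control lay on the side of vitrification II for both, at 23.5 and 49.8. Without H2, 7 members were higher, and with the FPKM as deposited 29. The lower ones were 0 without C1 or H3, and 1 without H1. The share that rose, 12 of 60, was close to the 17.3% of all genes.

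Of 17 enzymes of the tricarboxylic acid cycle, 4 rose and 0 fell (1 fell without A1, C1 or C2, or B1 or B2). MDH2, the malate dehydrogenase of the cycle, rose by 2.04 ± 0.43 (adjusted p = 0.00476), from 26.9, 64.0 and 58.5 in vitrification I to 205, 234 and 154 in vitrification II. Fresh control was above both groups, at 282. Of 19 genes of mitochondrial protein import, 2 rose and 2 fell. TOMM40, the pore of the outer membrane, read 0.712, 1.00 and 1.32 against 28.8, 27.9 and 11.9 and rose by 3.48 ± 0.38 (adjusted p = 0.000223), while TOMM70, a receptor of the same machine, fell by 1.52 ± 0.28 (adjusted p = 0.00239). The pore and its receptor thus separated the groups in opposite directions. TOMM22, a further receptor, fell by 1.52 ± 0.36 (adjusted p = 0.00903), a call that ended with the FPKM as deposited. TIMM17A, of the inner membrane channel, rose by 1.06 ± 0.36 (adjusted p = 0.0462). Its call ended without any single library other than A1 or C2 (adjusted p = 0.0524 to 0.177).

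Glycolysis was among the lists with the largest share of members higher. Of 16 genes of glucose uptake and glycolysis tested, 8 rose and 1 fell (median 1.38). ALDOA, aldolase, read 29.7, 80.4 and 40.0 in vitrification I and 291, 376 and 409 in vitrification II, and rose by 2.93 ± 0.45 (adjusted p = 0.000965). ENO1, enolase, read 30.3, 68.7 and 32.0 against 249, 272 and 207 and rose by 2.54 ± 0.46 (adjusted p = 0.00228). SLC2A1, the glucose transporter GLUT1, read 9.39, 13.8 and 28.2 against 103, 101 and 125 and rose by 2.74 ± 0.44 (adjusted p = 0.00125). Vitrification I was the low group in each, and the fresh control means of 345, 278 and 69.7 lay closer to vitrification II. PGAM1, phosphoglycerate mutase, differed in this respect: it rose by 1.74 ± 0.39 (adjusted p = 0.00672), and fresh control, at 6.38, lay below both groups. LDHB, a lactate dehydrogenase subunit, fell by 1.5 ± 0.40 (adjusted p = 0.0147). Its call ended without H2 or H3 (adjusted p = 0.0656 and 0.0551), with the FPKM as deposited (0.0914) and without a filter on low values (0.0614).

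A few iron and redox genes stood far apart between the groups. FTL, the light chain of ferritin, which stores iron, read 172, 474 and 148 in vitrification I and 1951, 3029 and 3157 in vitrification II, and rose by 3.52 ± 0.46 (adjusted p = 0.000422). TFRC, the transferrin receptor that takes up iron, rose by 2.14 ± 0.43 (adjusted p = 0.00393), from 2.57, 1.45 and 8.61 to 18.7, 19.6 and 16.6. FTL stood at 4076 in fresh control, above both groups, and TFRC at 0.840, below both. These were the 2 of 11 iron genes that passed, and 1 gene fell without A1 or C1. The share that rose, 18.2%, was close to the 17.3% of all genes.

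Of 27 genes of the thioredoxin and glutathione systems 7 rose and 4 fell (median -0.22). TXNRD1, the cytosolic thioredoxin reductase, read 2.52, 1.92 and 4.29 in vitrification I and 51.7, 53.4 and 67.2 in vitrification II, and rose by 3.94 ± 0.48 (adjusted p = 0.000334). KEAP1, the sensor that holds back the antioxidant factor NRF2, read 0.818, 1.73 and 0.249 against 10.7, 8.40 and 13.7 and rose by 2.68 ± 0.38 (adjusted p = 0.000601). Both genes separated the groups, with fresh control at 5.87 and 5.11. GSS, glutathione synthetase, rose by 1.95 ± 0.38, TXN2, the mitochondrial thioredoxin, by 1.58 ± 0.30, and GPX1, a glutathione peroxidase, by 1.82 ± 0.45 (adjusted p = 0.00313, 0.00293 and 0.0108), the last of which lost its call without a filter on low values (adjusted p = 0.0622). In the opposite direction, PRDX4, the peroxiredoxin of the ER, fell by 1.90 ± 0.35 and MGST3, a membrane glutathione transferase, by 2.23 ± 0.46 (adjusted p = 0.00258 and 0.00419). MT1A, a metallothionein that binds zinc and copper, was listed at 0 in all 3 libraries of vitrification I and read 20.5, 7.51 and 13.6 in vitrification II, with a mean of 4.24 in fresh control. The number of lower genes rests on single libraries and on the scaling: it was 2 without C1 or H2 or H3, and 8 after quantile normalization.

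Among structural genes of the epithelium that passed, most were higher in vitrification II. KRT8, one partner of the keratin pair of simple epithelia, was the most abundant gene outside the mitochondrial genome in vitrification II, at 3.84% ± 0.888 of the FPKM there (SD, n = 3) against 0.822% ± 0.349 in vitrification I. It read 1272, 3123 and 2622 in vitrification I and 7614, 13225 and 10613 in vitrification II, and rose by 2.23 ± 0.56 (adjusted p = 0.0117). KRT18, the other partner, read 1262, 1916 and 3668 against 1844, 2112 and 1585 (change -0.17 ± 0.46, adjusted p = 0.803). Thus KRT8 separated the groups and KRT18 overlapped, with fresh control means of 9679 and 4977. KRT7 rose by 2.85 ± 0.67 (adjusted p = 0.00827). The call of KRT8 ended without C1 (adjusted p = 0.0634), and those of KRT8 and KRT7 without a filter on low values.

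Of 30 genes of the actin and tubulin cytoskeleton, 9 rose and 0 fell (median 0.79). ACTB, the cytoplasmic beta-actin, read 37.0, 83.6 and 68.5 in vitrification I and 359, 611 and 541 in vitrification II, and rose by 3.02 ± 0.53 (adjusted p = 0.00202). CAPZB, which caps the growing ends of actin filaments, rose by 2.89 ± 0.50 (adjusted p = 0.00189), from 6.59, 5.09 and 3.40 to 58.1, 32.7 and 40.3. TUBB2A, a beta-tubulin, rose by 2.00 ± 0.44 (adjusted p = 0.00583). ZYX (zyxin), which marks sites where actin meets adhesions and was taken for its size of change, read 2.86, 2.50 and 1.75 against 62.2, 57.6 and 50.7 and rose by 4.11 ± 0.34 (adjusted p = 5.33e-05). Fresh control lay near vitrification II for ACTB, at 535, and between the groups for ZYX, at 23.5. Actins, tubulins and keratins have near-identical copies, and how the authors' counting divided reads among them is not stated. Without H2, 5 of the 30 rose.

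Cell junctions gave 9 genes higher and 2 lower of 23 (median 0.64). CLDN4, a claudin of tight junctions, read 15.6, 28.9 and 47.2 in vitrification I and 262, 248 and 363 in vitrification II, and rose by 3.32 ± 0.45 (adjusted p = 0.000502). JUP (plakoglobin), which ties desmosomes and adherens junctions to the cytoskeleton, read 5.36, 7.72 and 4.23 against 69.9, 48.4 and 63.9 and rose by 3.2 ± 0.41 (adjusted p = 0.000368). CLDN6, a claudin of early embryos, rose by 2.77 ± 0.53 (adjusted p = 0.00301). The 3 genes separated the groups, with fresh control at 207, 42.1 and 394. The 2 that fell were DSG2, a desmosomal cadherin, by 2.34 ± 0.36 (adjusted p = 0.00100), and EPCAM, an epithelial adhesion protein, by 1.54 ± 0.44 (adjusted p = 0.0211). DSG2 read 395, 191 and 350 in vitrification I and 51.2, 70.7 and 54.1 in vitrification II, so that it stood opposite to its desmosome partner JUP. The call of EPCAM ended without C3 or H2 or H3 (adjusted p = 0.0647 to 0.0752), with the FPKM as deposited (0.120) and without a filter on low values. The higher junction genes numbered 4 without C1 or H1, and 5 without C2 or H2.

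Among 10 genes listed for water and ion transport in the blastocyst, 2 rose and 1, a calcium pump of the ER, fell. AQP3, a water and glycerol channel, read 43.4, 57.6 and 85.8 in vitrification I and 265, 217 and 200 in vitrification II, and rose by 1.90 ± 0.57 (adjusted p = 0.0270). The fresh control mean was higher than both, at 538, but its libraries were uneven. The whole list summed to between 167 and 1043 in them, so in the lowest AQP3 lay below every library of vitrification II. Vitrification I and II did not overlap, but the call of AQP3 ended without C1 or C2 and without any single library of vitrification II (adjusted p = 0.0548 to 0.0957). AQP9, a related channel, rose by 1.75 ± 0.57 (adjusted p = 0.0362), and lost its call without C1 or C2 or H1 or H2 (adjusted p = 0.106 to 0.126). ATP2A2, the pump that returns calcium to the ER, read 26.7, 15.8 and 34.1 in vitrification I and 1.79, 2.07 and 2.73 in vitrification II, and fell by 3.0 ± 0.40 (adjusted p = 0.000457). It was the 1 gene of this list that was low in every library of vitrification II.

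Trophectoderm markers went both ways. Of 17 trophectoderm markers tested, 5 rose and 3 fell (median 0.07). ELF3, an epithelial transcription factor, read 0.982, 1.31 and 0.726 in vitrification I and 16.4, 19.9 and 7.83 in vitrification II, and rose by 2.89 ± 0.42 (adjusted p = 0.000758). TEAD4, which starts the trophectoderm program, read 1.25, 1.85 and 1.71 against 26.6, 11 and 7.17 and rose by 2.43 ± 0.48 (adjusted p = 0.00332). KLF5, a factor of both early lineages, went down from 145, 99.3 and 236 to 20.8, 38.1 and 49.3 and fell by 2.11 ± 0.40 (adjusted p = 0.00279). The groups stood apart in all 3, in both directions. CDX2 and GATA3, the factors most often used to define the trophectoderm, gave changes of -0.20 ± 0.39 and -0.83 ± 0.43 (adjusted p = 0.726 and 0.162), and their libraries overlapped. TFAP2A, another factor of the lineage, fell by 1.22 ± 0.41 (adjusted p = 0.0405), and the call held in 8 of the 21 alternatives. It ended without A2, C1 or C3, or H1 or H2 (adjusted p = 0.05 to 0.166), and 1 marker fell without C1 or H2.

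Epiblast and inner cell mass markers were higher in 4 of 9 tested (2 without C3 or H1, 1 with C2 alone) and lower in 0 (median 1.05). LIN28A, an RNA-binding protein of pluripotent cells, read 0.582, 1.53 and 0.496 in vitrification I and 58.8, 32.5 and 17.7 in vitrification II, and rose by 4.20 ± 0.45 (adjusted p = 0.000216), the largest rise among genes with a symbol, a mean of at least 5 and a call in every alternative. SALL4, a pluripotency factor, rose by 1.79 ± 0.34 (adjusted p = 0.00293), from 0.839, 0.685 and 1.18 to 8.80, 4.22 and 4.49. Fresh control lay between the groups for LIN28A, at 8.36, and within the range of vitrification I for SALL4, at 1.13. KLF17 and STAT3 rose by 1.38 ± 0.36 and 1.30 ± 0.42 (adjusted p = 0.0137 and 0.0376). KLF17 lost its call without C3 or H1 (adjusted p = 0.0543 to 0.0623). STAT3 lost it without A3, C2 or C3, or H1 or H3 (adjusted p = 0.0518 to 0.134). NANOG, another pluripotency factor, changed by 0.42 ± 0.72 (adjusted p = 0.699) and did not pass. Of 9 hypoblast markers tested 0 passed in the limma fit, against 27.4% of all genes, although 3 rose without C2 and 1 fell without C1. GATA6, a defining one, read 26.4, 12.9 and 25.0 in vitrification I and 17.8, 10.9 and 14.8 in vitrification II (change -0.49 ± 0.39, adjusted p = 0.364). POU5F1, SOX2 and SOX17 matched no identifier and were not analysed here.

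Markers of cells outside the embryo were followed as well. Of 12 cumulus and granulosa cell markers 9 matched an identifier and 0 of these reached the filter, FSHR, HAS2, PTX3 and TNFAIP6 were listed at 0 in all 6 libraries, and the summed level ran from 0.0282 to 1.51 in vitrification I and from 0.202 to 0.307 in vitrification II. Leukocyte markers (13 of 14 matched) summed to 33.1 to 56.3 and 40.1 to 56.7. Of these, 4 passed the filter and 0 were called (1 lower without C2), and PTPRC, CD3E, CD3D, CSF1R and CD8A were at 0. Of 16 maternal oocyte transcripts 14 matched, 2 of these passed the filter and 0 were called, and ZP3, ZAR1 and NLRP5 were at 0. The erythroid list had 1 of its 7 matched markers above the filter (10 listed) and the fibroblast list 0 of 7 (8 listed).

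Immediate early genes, which cells switch on within minutes of a stimulus, had the largest share of members higher of any list with at least 5 members. Of 17 tested, 11 rose and 0 fell (median 1.53), which is 64.7% against 17.3% of all genes. DUSP1, a phosphatase that shuts off MAP kinases, read 4.22, 1.52 and 8.32 in vitrification I and 49.4, 41.5 and 70.0 in vitrification II, and rose by 3.43 ± 0.42 (adjusted p = 0.000364). ZFP36, which speeds the decay of short-lived mRNAs, read 7.49, 6.81 and 2.29 against 41.2, 24.9 and 58.1 and rose by 2.74 ± 0.40 (adjusted p = 0.000743). IER3 was listed at 0 in the 3 libraries of vitrification I and read 10.8, 5.64 and 28.4 in vitrification II. The groups did not overlap in these genes. Fresh control was close to vitrification I for DUSP1, at 6.77, and for IER3, at 0.818, and between the groups for ZFP36, at 22.9. Without H2, 7 members rose, and 1 fell without H3.

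Some genes of both sides of apoptosis were higher. Of 21 pro-apoptotic genes 8 rose and 2 fell (median 0.38), and of 9 anti-apoptotic genes 2 rose and 0 fell (1 fell without A1 or H3). BID, a BH3 protein that relays death receptor signals to the mitochondrion, read 0.295, 1.11 and 0.649 in vitrification I and 24.4, 27.8 and 27.3 in vitrification II, and rose by 4.06 ± 0.35 (adjusted p = 5.33e-05). TNFRSF12A, the receptor of the cytokine TWEAK, read 8.28, 7.02 and 13.1 against 114, 148 and 102 and rose by 3.57 ± 0.31 (adjusted p = 5.33e-05). BCL2L1 (BCL-XL), which blocks the pore that BAX forms, read 3.17, 3.41 and 5.77 against 26.9, 34.0 and 35.3 and rose by 2.72 ± 0.40 (adjusted p = 0.000743). Vitrification II was the high group in all 3, with fresh control in between at 5.21, 53.2 and 14.1. BIRC5 (survivin), which also acts in mitosis, rose by 2.51 ± 0.50 (adjusted p = 0.00346), and with BCL2L1 it made up the anti-apoptotic genes that passed.

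BAX, which opens the outer membrane of the mitochondrion, rose by 1.28 ± 0.38 (adjusted p = 0.0254), while AIFM1, a mitochondrial flavoprotein released in cell death, fell by 1.84 ± 0.46 (adjusted p = 0.0117). These calls depended on single libraries. BAX lost its call without C1 or C3 and without H1 or H2 (adjusted p = 0.0708 to 0.102), and AIFM1 without H2 (adjusted p = 0.0518). The 8 higher pro-apoptotic genes became 5 without C3 or H2, and the 2 lower ones 0 without H2, 1 without C1 or H3 and 3 without A1.

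Genes of DNA replication and mitosis were higher in 23 of 53 tested and lower in 0 (median 1.07). MCM7, a subunit of the helicase that opens DNA for replication, read 3.34, 5.51 and 0.523 in vitrification I and 32.7, 33.0 and 24.3 in vitrification II, and rose by 3.13 ± 0.45 (adjusted p = 0.000696). MCM4, of the same helicase, rose by 2.99 ± 0.44 (adjusted p = 0.000758), from 0.368, 3.71 and 1.93 to 25.1, 20.0 and 16.4. CDC20, which triggers the separation of chromatids, read 7.28, 16.7 and 5.40 against 65.1, 100 and 55.5 and rose by 2.89 ± 0.40 (adjusted p = 0.000539). The groups stood apart in each, and fresh control lay between them at 15.5, 5.01 and 34.8. In this list 16 genes rose without C3, and 1 fell without C2. In DNA repair 5 of 25 genes rose and 0 fell (median 0.17). UNG, which removes uracil from DNA, read 0.0540, 0.782 and 0 in vitrification I and 7.80, 9.22 and 4.19 in vitrification II, and rose by 2.65 ± 0.34 (adjusted p = 0.000402). DDB1, of a ubiquitin ligase that recognises ultraviolet damage, rose by 2.47 ± 0.36 and FANCD2, of crosslink repair, by 1.43 ± 0.32 (adjusted p = 0.000780 and 0.00658). The higher repair genes numbered 3 without C1 or H1 or H2, and 2 fell without C3 and 1 without H1.

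**Figure D5:**
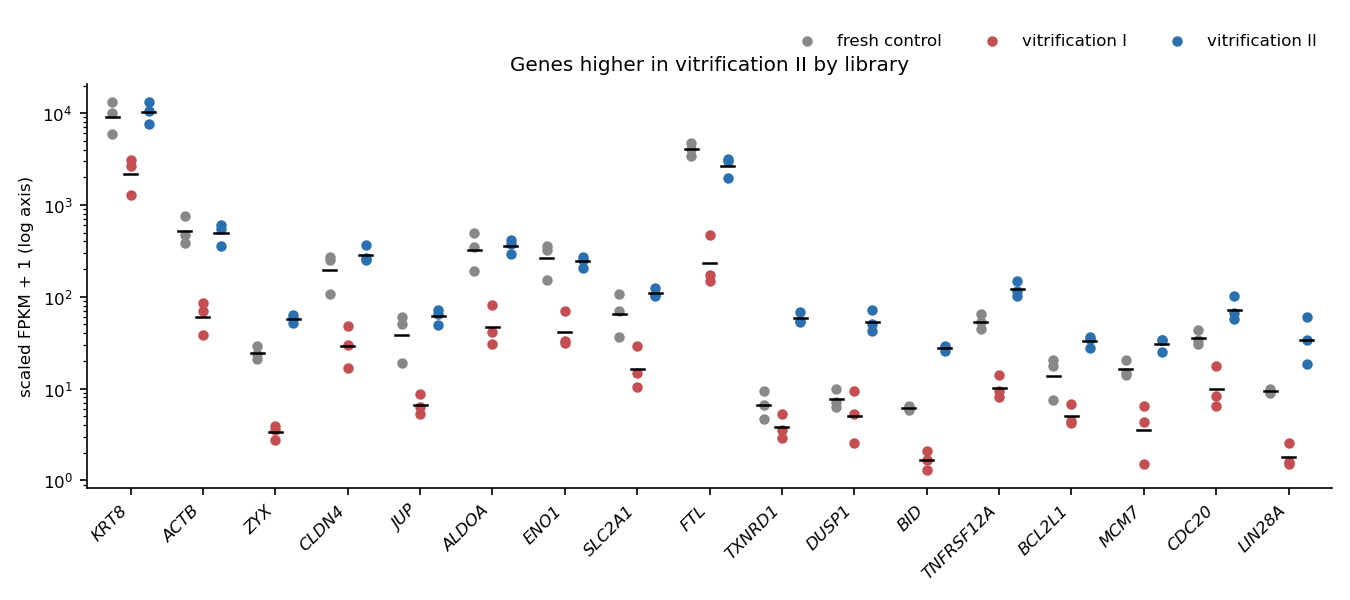
Scaled FPKM + 1 (vertical log axis) of 17 genes higher in vitrification II, from the keratin, cytoskeleton, junction, glycolysis, iron and redox, immediate early, apoptosis, replication and epiblast lists, in each library of fresh control, vitrification I and vitrification II. Points are libraries and the black line is the mean on the log scale. The genes were picked among those called higher, so that the libraries of vitrification II lie above those of vitrification I in each of the 17 follows from the choice (26.2% of all genes tested separate this way). Fresh control takes positions from near vitrification I (DUSP1) to above vitrification II (FTL).

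Messenger RNA splicing gave 11 of 39 genes higher and 1 lower (median 0.55). SF3A2, of the complex that recognises the branch point, read 0, 0.609 and 0 in vitrification I and 20.0, 8.52 and 14.7 in vitrification II, and rose by 3.64 ± 0.38 (adjusted p = 0.000181). EFTUD2, the GTPase of the spliceosome core, rose by 2.74 ± 0.36 (adjusted p = 0.000445), from 3.71, 2.60 and 1.33 to 24.5, 19.7 and 21.3. PRPF31, which joins the small nuclear ribonucleoproteins of the core, rose by 2.53 ± 0.34 (adjusted p = 0.000491). Vitrification I was at or near 0 in SF3A2 and PRPF31, while fresh control stood at 5.99 and 5.79. SRSF11, a serine-arginine splicing factor, fell by 1.40 ± 0.38 (adjusted p = 0.0167), and lost its call without H2 or H3 (adjusted p = 0.0562 and 0.0569) and with the FPKM as deposited (0.199). Without H1, 7 of the 39 rose.

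RNA-binding proteins that act on stored mRNAs moved both ways, with 3 higher and 4 lower of 13. IGF2BP1, which shelters mRNAs from decay, read 4.46, 2.58 and 2.93 in vitrification I and 24.4, 30.1 and 29.9 in vitrification II, and rose by 2.77 ± 0.28 (adjusted p = 0.000135). PABPC4, a poly(A) binding protein, read 27.4, 34.1 and 41.5 against 3.15, 2.06 and 2.00 and fell by 3.37 ± 0.33 (adjusted p = 0.000127). PCBP2, a poly(C) binding protein, read 90.6, 87.9 and 44.6 against 6.44, 7.40 and 9.88 and fell by 3.03 ± 0.35 (adjusted p = 0.000243). The groups were apart in all 3, and fresh control was on the side of vitrification II, at 15.8, 8.39 and 4.91. PABPC1, the most common poly(A) binding protein, fell by 1.41 ± 0.33 (adjusted p = 0.00804), a call that ended with the FPKM as deposited and with C2 alone (adjusted p = 0.122 to 0.124). The 3 that rose were IGF2BP1, LIN28A (above) and the cold-inducible RBM3, by 1.14 ± 0.38 (adjusted p = 0.0418). RBM3 lost its call without A3, C2 or C3, or H2 or H3 (adjusted p = 0.0569 to 0.171). CIRBP, also cold-inducible, changed by 0.28 ± 0.43 (adjusted p = 0.655) and did not pass.

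Translation factors gave 7 higher and 3 lower of 27 (median 0.22). EIF3F, of the initiation complex on the small ribosomal subunit, read 36.7, 28.0 and 45.4 in vitrification I and 4.52, 2.35 and 4.17 in vitrification II, and fell by 3.02 ± 0.39 (adjusted p = 0.000402). Without H1, 4 factors rose. EIF4G2, which supports initiation without a cap, rose by 1.26 ± 0.27 (adjusted p = 0.00542). Neither gene's groups overlapped. Cytoplasmic ribosomal proteins were called in 1 of 53 genes at this scaling (median 0.47). The call was RPSA, by 1.44 ± 0.50 (adjusted p = 0.0498), and it ended in 11 of the 21 alternatives, among them leaving out A3 or any library of vitrification I or vitrification II (adjusted p = 0.0644 to 0.158). RPLP1, of the stalk of the large subunit, read 706, 825 and 666 in vitrification I and 1544, 1587 and 1497 in vitrification II (change 1.08 ± 0.39, adjusted p = 0.0537). Its libraries did not overlap although the test was not passed. The count turned on the scaling, with 34 of 53 higher for the FPKM as deposited and 24 after quantile normalization, and 4 higher without B1 or B2.

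Cytosolic and mitochondrial heat shock chaperones were higher in 5 of 24 and lower in 1 (median 0.58; 2 lower without C2). STIP1, which bridges HSP70 and HSP90, rose by 1.24 ± 0.29 (adjusted p = 0.00791), from 28.4, 44.0 and 24.8 to 72.1, 88.5 and 67.4. HSPA8, the constant HSP70 of the cytosol, read 691, 833 and 732 in vitrification I and 1533, 1408 and 1713 in vitrification II (change 1.04 ± 0.37, adjusted p = 0.0507). HSPD1, the HSP60 of the mitochondrial matrix, read 877, 610 and 696 against 301, 267 and 239 and fell by 1.42 ± 0.37 (adjusted p = 0.0130). The libraries of the groups did not overlap in these genes, although HSPA8 did not pass the test. The call of HSPD1 ended with the FPKM as deposited and with C2 alone (adjusted p = 0.108 to 0.187). The higher genes numbered 1 without C1, 3 without C3 or H1, and 2 without H3.

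Lipid genes went both ways in each list. In fatty acid synthesis and storage 3 of 16 rose and 2 fell. MID1IP1, an activator of acetyl-CoA carboxylase, read 178, 73.3 and 80.3 in vitrification I and 10.3, 6.49 and 17.6 in vitrification II, and fell by 3.14 ± 0.51 (adjusted p = 0.00131). SCD, the desaturase that makes oleate, read 157, 138 and 465 against 23.0, 48.2 and 84.6 and fell by 2.22 ± 0.50 (adjusted p = 0.00666). For both, all libraries of vitrification I lay above vitrification II, and fresh control, at 5.02 and 29.3, was on the side of vitrification II. ELOVL1, an elongase, PLIN3, a coat protein of lipid droplets, and FABP5, a fatty acid carrier, rose by 2.13 ± 0.75, 1.58 ± 0.41 and 2.07 ± 0.64 (adjusted p = 0.0497, 0.0139 and 0.0298). Each lost its call without C1 and without further single libraries (adjusted p = 0.0505 to 0.171). The higher genes numbered 0 without C1 and 1 without H1 or H3, and the lower ones 4 without C2.

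In fatty acid oxidation 5 of 18 rose and 2 fell (median 0.43). SLC25A20, the carrier that brings fatty acids into the mitochondrion as carnitine esters, rose by 2.07 ± 0.37 (adjusted p = 0.00222), from 1.49, 5.05 and 2.30 to 19.5, 15.4 and 9.93. ACADVL, the first dehydrogenase for very long chains, rose by 1.96 ± 0.36 (adjusted p = 0.00248), while ACAA2, the last enzyme of the cycle, fell by 1.93 ± 0.39 and ETFA, which takes up its electrons, by 1.36 ± 0.36 (adjusted p = 0.00410 and 0.0145). The call of ETFA ended without C1 or H1 (adjusted p = 0.0546 and 0.0666), and the higher genes numbered 3 without C3 or H1 or H3. Cholesterol synthesis gave 3 higher and 4 lower of 23. MVD and DHCR7, an early and a late enzyme, rose by 2.59 ± 0.51 and 1.74 ± 0.43, and SQLE, the squalene epoxidase between them, fell by 1.64 ± 0.45 (adjusted p = 0.00350, 0.0105 and 0.0175). Vitrification II libraries were high for MVD, at 24.7, 30.3 and 40.0 against 2.59, 8.31 and 3.53. The 4 lower genes were 0 with the FPKM as deposited and without C3 or H1, 1 without H2, and 2 without C2, A2 or A3. SQLE lost its call without C3 or H1 (adjusted p = 0.0580 and 0.0760).

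Of 32 histone modifiers and remodellers 4 rose and 5 fell, together a share close to the 27.4% of all genes that passed, and of 11 enzymes and readers of DNA methylation 0 rose and 1 fell. SIRT1, a nuclear deacetylase, read 13.7, 10.0 and 24.5 in vitrification I and 3.92, 1.37 and 1.95 in vitrification II, and fell by 2.30 ± 0.43 (adjusted p = 0.00276). KDM1A, a histone demethylase, fell by 1.76 ± 0.38 and SMARCB1, a core subunit of the SWI/SNF remodeller, rose by 2.00 ± 0.46 (adjusted p = 0.00561 and 0.00796). MBD2, which binds methylated DNA, was the 1 methylation gene that fell, by 1.72 ± 0.35 (adjusted p = 0.00379). Of the histone list, 2 rose without H1 or H2, 2 fell without C1 or H2, and 3 fell without H3. With the FPKM as deposited 7 rose and 2 fell. Among 6 imprinted genes tested 1 rose and 2 fell. IGF2R, the receptor that clears the growth factor IGF2, read 9.71, 6.18 and 17.5 against 1.54, 1.49 and 1.72 and fell by 2.12 ± 0.36 (adjusted p = 0.00171), with fresh control at 1.14. Vitrification I was the group that stood apart for IGF2R. GRB10, an adaptor that dampens growth factor receptors, fell by 1.24 ± 0.40 (adjusted p = 0.0345), and lost its call without C2 or C3 and without H2 or H3 (adjusted p = 0.0730 to 0.123). PHLDA2, which restrains growth of the placenta, rose by 2.21 ± 0.72 (adjusted p = 0.0365), from 2.14, 1.34 and 0.990 in vitrification I to 19.8, 2.35 and 19.8 in vitrification II, where H2 lay close to vitrification I. Its call ended without any single library of vitrification I and without H1 or H3 (adjusted p = 0.0628 to 0.133).

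Genes by which the pig conceptus signals and attaches gave 3 higher and 2 lower of 19. HSD17B1, an enzyme of estradiol synthesis, was listed at 0 in all 3 libraries of vitrification I and read 11.4, 16.8 and 22.0 in vitrification II. PLAU, the urokinase protease, was likewise listed at 0 in vitrification I and read 2.64, 6.78 and 2.94 in vitrification II. In fresh control HSD17B1 was above 0 in all 3 libraries, at 0.731, 0.273 and 0.496, and PLAU in 1, at 1.32. ITGA5, a fibronectin receptor subunit, rose by 1.54 ± 0.42 and ITGAV, of the vitronectin receptor, fell by 1.57 ± 0.46 (adjusted p = 0.0172 and 0.0246). ITGA5 lost its call without C1 or C2 or H1 or H3, and ITGAV without C3 and without any single library of vitrification II (adjusted p = 0.0526 to 0.0818 over these). The lower genes numbered 0 without C3 or H2, and 1 without C1 or H1 or H3.

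Of 17 solute carriers of amino acids and metals, 7 fell and 1 rose (median -0.86). SLC30A9, a zinc transporter, read 82.3, 46.6 and 65.2 in vitrification I and 12, 12.9 and 16.4 in vitrification II, and fell by 2.13 ± 0.30 (adjusted p = 0.000682). SLC1A4, a carrier of small neutral amino acids, read 7.02, 9.40 and 8.17 against 1.59, 0 and 0.0606 and fell by 2.71 ± 0.61 (adjusted p = 0.00701). The 1 that rose was SLC39A1, a zinc importer of the plasma membrane, by 2.15 ± 0.48 (adjusted p = 0.00642), from 5.87, 7.91 and 22.8 to 46.3, 58.4 and 44.2. No library crossed between the groups in these 3. Without C3 or H3, 4 fell, and with the FPKM as deposited 3. SLC1A4 lost its call without a filter on low values.

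Of 40 lysosomal genes 6 were higher and 6 lower (median -0.26), a split that rests on the scaling, being 13 higher and 2 lower with the FPKM as deposited. CREG1, a glycoprotein of the lysosome, read 382, 232 and 659 in vitrification I and 36.5, 48.2 and 30.9 in vitrification II, and fell by 3.32 ± 0.45 (adjusted p = 0.000491). MAN2B1, the lysosomal mannosidase, rose by 2.98 ± 0.53 (adjusted p = 0.00214), from 1.35, 5.32 and 7.10 to 31.6, 29.5 and 59.1. CREG1 and MAN2B1 mark opposite ends of the list, with fresh control on the side of vitrification II in both, at 25.1 and 23.6. The 6 lower genes became 3 without A2, B1 or B2, or H3. They became 2 without A3, C3 or H1, and 1 without H2. Autophagy gave 5 of 21 higher and 0 lower (median 0.60), among them ATG7 and ATG4B, which prepare the membrane tag of the autophagosome, by 1.72 ± 0.30 and 2.02 ± 0.41 (adjusted p = 0.00176 and 0.00383). The higher genes numbered 3 without C1, and 2 without C3 or H2 or H3, and 1 fell without C2.

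Of 13 genes of the interferon response and chemokines, 2 rose and 0 fell. CCL1, a chemokine, read 3.86, 3.34 and 12.4 in vitrification I and 16.3, 33.0 and 55.2 in vitrification II, and rose by 2.29 ± 0.55 (adjusted p = 0.00921). IRF7, which switches on interferon genes, read 0, 0.211 and 0.0691 against 3.47, 7.68 and 2.30 and rose by 2.21 ± 0.36 (adjusted p = 0.00131). Fresh control, at 0.972 for CCL1 and 1.94 for IRF7, was below both groups in the former and between them in the latter. CCL1 lost its call without a filter on low values.

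Outside the lists, the largest changes that held in every alternative named several other genes. Among the rises, PPP2R1A, the scaffold of protein phosphatase PP2A, read 0.981, 2.68 and 0.723 in vitrification I and 37.3, 27.1 and 28.3 in vitrification II, and rose by 3.76 ± 0.33 (adjusted p = 5.33e-05). RAB5B, a GTPase of early endosomes, read 0, 1.36 and 0 against 16.9, 15.7 and 20.8 and rose by 3.81 ± 0.37 (adjusted p = 0.000108). PRSS8, a serine protease at the surface of epithelia, rose by 3.71 ± 0.62 and TKTL1, related to transketolase, by 3.99 ± 0.81 (adjusted p = 0.00160 and 0.00382). TKTL1 was uneven within both groups, at 4.09, 0.0163 and 0.0901 and at 46.8, 58.7 and 6.97. Among the falls, ODC1, the first enzyme of polyamine synthesis, read 389, 348 and 517 against 47.1, 26.0 and 40.7 and fell by 3.45 ± 0.47 (adjusted p = 0.000525). PRKCB, a protein kinase C, fell by 3.49 ± 0.44 and TLCD5, a membrane protein, by 3.68 ± 0.54 (adjusted p = 0.000368 and 0.000749). Fresh control lay between the groups for PPP2R1A, at 12.1, and for ODC1, at 123.

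The groups also differed in which genes were detected. There were 34 genes listed at 0 in all libraries of vitrification I and at a deposited FPKM of at least 1 in all libraries of vitrification II, 24 of them with a symbol, and 1 gene, IQCG, with the reverse. Beside HSD17B1, IER3, MT1A and PLAU, they included TFF1, a trefoil peptide of mucosal surfaces, at 7.75, 7.82 and 16.5 in vitrification II, and CLDN1, a claudin, at 1.77, 4.76 and 4.09. GRHL3, an epithelial transcription factor, read 5.23, 2.12 and 3.43. These 3 were chosen after their values were seen. Fewer genes were above 0 in vitrification I at all, and an exact 0 in such a table can be a gene missed, so no fold is given for them.

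Fresh control served as a further reference. Among the 1629 genes higher in vitrification II its mean lay between the 2 groups for 1223 (75.1%), and it lay nearer vitrification II for 927 (56.9%). Among the 948 lower genes it lay between for 514 (54.2%), below both for 360, and nearer vitrification II for 682 (71.9%). Over all genes tested these shares were 38.3% between and 57.9% nearer vitrification II. A gene called between 2 groups leaves more room between them than other genes do, so the shares between are a description only. ERO1B, CALR and CREG1 belong with the lower genes whose control level was close to vitrification II, and DUSP1 and TXNRD1 with the higher genes whose control level was close to vitrification I.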

How the data were processed

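RNA was measured by Smart-Seq2, which amplifies cDNA from very small inputs, and Illumina sequencing, per the labels' protocols. The deposited values are FPKM for 31781 Ensembl pig gene identifiers in 11 libraries. Of the tools, Cufflinks 2.2.1 and TopHat2 2.0.13 stand in the submitters' processing notes beside FastQC and DESeq2, with no role given, and the genome build is not given in the sources used here. No column belonged to vitrification replicate 3, which was therefore left out. The authors' gene symbols were not in the table, and 15347 identifiers matched a symbol in a supplied name table. Depth is unknown, since the values gave back no whole reads and hold no counts, so no counting interval is given.

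FPKM were divided by a median-of-ratios factor per library, taken over the 4726 genes with an FPKM of at least 1 in every library. Genes that reached an FPKM of 1 in 3 or more libraries were kept, 9411 in all, 8158 of them (86.7%) with a symbol. Group means of log2(scaled FPKM + 1) were fitted together for the 11 libraries in limma 3.58.1 under R 4.3.3 (eBayes with trend, Benjamini-Hochberg adjustment over all genes kept, threshold 0.05). The script was tested on simulated data with known changes. Library measures were compared with exact permutation tests in SciPy 1.17.1 on the deposited FPKM, two-sided. Replicate numbers were not used as pairs, because no same-numbered libraries deviated together with a correlation over 0.1.

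The comparison, the gene lists, the rule for named genes and the scaling were chosen with earlier results of these data known. The rule took the 12 largest rises and 12 largest falls among genes with a symbol, called in every alternative, whose libraries did not overlap and whose mean in the higher group reached 5. To these came up to 3 called genes a list and direction and 51 genes fixed by name, of which 6 matched no identifier and 1 lay below the filter; not all were printed. Alternatives were other scalings, pseudocounts, filters and fits, and leaving out each library.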

Additional observations from a re-analysis of the deposited data

How the results depend on the processing

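Of the 21 alternatives, none called a gene in the direction opposite to its call here. The 2577 calls became 1601 (1058 higher, 543 lower) without a filter on low values, over 24211 genes, and 334 (236 and 98) with vitrification I represented by replicate 2 alone, a fit that assumes the lone library varies like the other groups. With the FPKM as deposited the split was 3261 higher and 353 lower. Leaving out single libraries gave 1690 to 2744 calls, 1079 to 1759 higher and 554 to 986 lower. With a threshold of 0.1 in place of 1, vitrification II had 2251 more genes above it than vitrification I. With the replicate number as a block 2398 genes were called (1548 higher, 850 lower). Same-numbered libraries of the groups deviated together with r of 0.035, 0.091 and 0.052, and each library correlated best with its own number, a hint from the data and not from the design. The cause of these shifts was not tested, and the smaller fits also held fewer libraries.

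Among named genes that did not pass, KRT18 changed sign with the FPKM as deposited (0.53), after quantile normalization (0.19) and without vitrification I replicate 3 (0.19; -0.57 to 0.19 over single libraries left out). CDX2 did so with the FPKM as deposited (0.28) and without vitrification I replicate 1 (0.01) or vitrification II replicate 3 (0.11; -0.46 to 0.11 over single libraries left out). GATA6 did so with the FPKM as deposited (0.18) and with vitrification I replicate 2 alone (0.04). The planned grouping of genes by protein length and hydrophobic segments was not run, since no protein sequences were at hand. With 3 libraries a group, unknown depth and 12643 ± 1272 genes above 0 in vitrification I (SD, n = 3), a low gene that did not pass may differ undetected.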
